A study of Mus musculus with 11 samples.

Results

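The genes described here encode the machinery that copies DNA in S phase. They are 36 named genes of origin licensing, the replicative helicase, the polymerases, the sliding clamp, nucleotide supply, chromatin copying and the transcription factor E2F1, chosen by symbol. Of these, 35 had a row among the 14700 genes of the deposited table and all 35 passed the filter on low counts. Fen1, the flap nuclease gene, is not analysed here. RNA was sequenced from whole lungs of C57BL/6 mice aged 8 weeks. The 5 bleomycin libraries came from mice given 3 U/kg of this DNA-damaging glycopeptide into the trachea and the 6 saline libraries from mice given saline, each in 50 µL at day 0, and lungs were taken at day 3. Libraries are numbered within each group, but the labels leave unsaid whether each came from its own mouse, so the p-values speak only to library-to-library spread, which may be technical.

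In dividing cells, origins are first licensed in G1, when ORC, CDC6 and CDT1 load the MCM2 to MCM7 ring onto DNA. In S phase CDC45 and GINS join the ring to form the active helicase, polymerase alpha and primase start each strand, and polymerases delta and epsilon extend them behind the PCNA clamp. Many of these genes are E2F targets, held back by RB proteins until G1 cyclins act. The p53 target p21 (Cdkn1a) inhibits cyclin-dependent kinases and binds PCNA. In adult lung few cells cycle at rest, and in whole lung RNA fewer cycling cells and less RNA per cell cannot be told apart.

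Total counts ranged from 13226339 to 19009284 per library. Levels are given as CPM, read counts scaled to a common library total with TMM factors, and fold changes as log2 of bleomycin over saline with a standard error (SE). Alveolar type 2 markers, which mark lung epithelium, summed to 21118 to 31942 CPM in bleomycin and 10969 to 41697 CPM in saline libraries, abundant in all 11. Saline 2 and 3 stood apart from the other saline libraries. Recruited monocyte and macrophage markers summed to 2724.5 and 2278 CPM in them and to at most 1002.5 CPM in the other saline libraries. In saline 1 and 4 the airway secretory gene Scgb1a1 alone held 132650 and 146470 CPM, while it held 15672 to 62951 CPM in the bleomycin group and 23055 to 76987 CPM in the remaining saline libraries. The count of replication genes called is therefore given without either pair as well, and the part of these differences in the results was not tested.

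Of the 35 replication genes, 5 fell and 0 rose after bleomycin by edgeR's quasi-likelihood test with Benjamini-Hochberg adjustment over 14478 genes. The 5 were Dut, Rpa2, Rrm2, Pcna and Pola1. Over all genes tested 10.3% were called, 5.7% lower and 4.63% higher. DESeq2 called 7 members lower and 0 higher, where it called 11.3% of all genes lower and 8.6% higher. By edgeR 9 members had an unadjusted p under 0.05, all lower in bleomycin, as did 16.6% of all genes in that direction. The median log2 fold change of the 35 was -0.32, beside -0.04 over all genes tested. The fold change was negative for 32 of the 35, against 53% of all genes, for 24 with total-count scaling, where 38.8% of all genes were negative, and for 21 without saline 2 and 3, where 50.2% were. Without saline 2 and 3, 3 members fell (Dut, Rpa2 and Pola1), with a median of -0.14, while 9.97% of all genes were called lower, so the members' share was below that of all genes. Without saline 1 and 4, 2 fell (Dut and Rrm2), with a median of -0.44, while 4.07% of all genes were called lower. All 5 bleomycin libraries lay below all 6 saline libraries for 3 members, Dut, Mcm6 and Prim1, and above them for 0. Such a separation was seen for 4.41% of all genes below and 3.99% above. Total-count scaling moved the median of all genes by 0.18 on the log2 scale. Relative to the median of all genes in the same fit, the members stood at -0.31 with total-count scaling and at -0.29 with TMM scaling. They stood at -0.13 without saline 2 and 3, -0.14 by limma on log2(FPKM + 1) and -0.47 without saline 1 and 4. Total-count scaling also turned the 671 higher and 825 lower calls over all genes into 894 and 380. It then called 0 members by edgeR (5 at an unadjusted p under 0.05, beside 4212 of all 14478 genes in either direction).

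**Figure D1:**
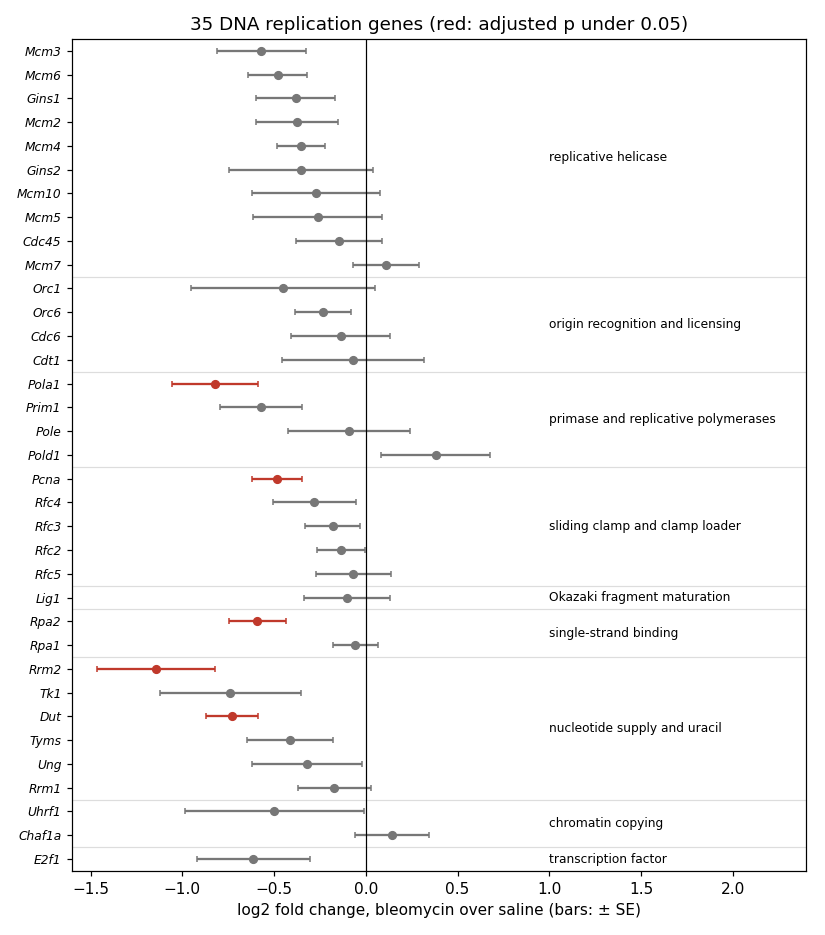
Log2 fold change of each of the 35 replication genes, bleomycin over saline, with bars of ± 1 SE, grouped by role. The 5 genes past the adjusted threshold are in red, and 32 of 35 points lie left of 0 with TMM scaling (24 with total-count scaling, 21 without saline 2 and 3).

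Promoter sequence is a feature of these genes that did not enter their choice. The RefSeq promoter table (GRCm38.p6, 250 bases before to 50 after each start) held windows for 31 of the 36 genes. The E2F site was searched on both strands as TTTCCCGC, TTTCGCGC, TTTGCCGC or TTTGGCGC, forms that can overlap one another. At least 1 match was present for 12 of the 31 genes (38.7%), against 2.61% of the 27025 genes in the table. The CCAAT box was present for 61.3% of the members and 41.1% of all genes, and TTTGAA, the core of the cell cycle homology region, for 9.68% and 20.2%. Among the tested members with a window, the median log2 fold change was -0.22 for the 12 with an E2F match and -0.35 for the 18 without. Of the 5 genes that fell, only Pola1 had a match in its window. The windows of Dut (the smallest p), Pola1 (the match among the 5) and Mcm6 (the most matches, 3) are shown 5′ to 3′ along the gene's strand, with E2F matches in capitals. They lie at chr2:125247265-125247564 on the plus strand for Dut, chrX:93632106-93632405 on the minus strand for Pola1 and chr1:128359656-128359955 on the minus strand for Mcm6.
Dut: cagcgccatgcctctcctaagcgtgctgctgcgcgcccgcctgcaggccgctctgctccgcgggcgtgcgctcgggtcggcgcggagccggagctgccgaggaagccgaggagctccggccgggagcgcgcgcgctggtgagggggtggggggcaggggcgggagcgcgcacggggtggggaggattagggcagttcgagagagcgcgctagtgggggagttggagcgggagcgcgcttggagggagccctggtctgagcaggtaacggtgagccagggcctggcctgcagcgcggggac
Pola1: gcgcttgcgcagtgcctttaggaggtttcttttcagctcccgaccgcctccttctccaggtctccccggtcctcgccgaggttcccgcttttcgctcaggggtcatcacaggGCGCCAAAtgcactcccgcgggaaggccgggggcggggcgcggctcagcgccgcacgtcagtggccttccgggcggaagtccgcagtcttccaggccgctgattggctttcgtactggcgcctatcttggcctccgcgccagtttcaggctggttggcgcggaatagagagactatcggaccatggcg
Mcm6: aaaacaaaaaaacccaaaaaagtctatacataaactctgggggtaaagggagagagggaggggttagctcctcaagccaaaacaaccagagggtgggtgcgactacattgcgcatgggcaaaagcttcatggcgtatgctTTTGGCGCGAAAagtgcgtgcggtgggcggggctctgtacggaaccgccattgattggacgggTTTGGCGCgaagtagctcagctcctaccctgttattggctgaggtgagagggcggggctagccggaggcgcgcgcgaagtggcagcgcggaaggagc
In the Pola1 window the match begins 138 bases before the start. In the Mcm6 window matches begin 110, 106 and 47 bases before it, and the first pair overlap. In the Dut window the searched letters were not found, which says nothing of other forms of the site.

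Among the genes of nucleotide supply, all 6 had negative log2 fold changes with TMM scaling (Rrm1 was above 0 with total-count scaling, at 0.01, and Ung without saline 2 and 3, at 0.12), and 2 of the 6 fell. Dut encodes dUTPase, which keeps uracil out of DNA by breaking down dUTP. It held 10.7, 13.8, 11.4, 14.8 and 13.5 CPM in bleomycin 1 to 5, and a lowest, median and highest value of 18.6, 21.0 and 23.6 CPM in saline. The groups did not overlap. Its log2 fold change was -0.73 ± 0.14 (SE), a 1.65-fold fall (edgeR adjusted p = 0.0114). The call held in each of the 11 fits that left out 1 library, and without saline 2 and 3 (-0.77, adjusted p = 0.0136). It was lost with total-count scaling (-0.53, adjusted p = 0.0512).

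Rrm2 encodes the small subunit of ribonucleotide reductase, whose supply limits dNTP synthesis in S phase. It held 3.17, 6.31, 6.61, 10.1 and 10.1 CPM in bleomycin 1 to 5, against a lowest, median and highest value of 9.79, 15.1 and 24.0 CPM in saline. Only saline 1 lay within the bleomycin range, and saline 3 and 2 were highest. The log2 fold change was -1.14 ± 0.32 (SE), a 2.21-fold fall (adjusted p = 0.0440), the largest fold change of the 35. The call was lost without any 1 library other than saline 1 or saline 6 (adjusted p 0.0502 to 0.104, log2 fold change -1.29 to -0.95). It was also lost without saline 2 and 3 (-0.82, edgeR adjusted p = 0.0805). Total-count scaling, GC correction and limma on FPKM lost it as well. Rrm1, the large subunit gene, averaged 47.2 ± 12.6 CPM in bleomycin and 53.2 ± 10.1 CPM in saline libraries (SD, n = 5 and 6, edgeR adjusted p = 0.592). The difference between the subunits was not tested. A pseudogene, Gm48455, matches the Rrm2 transcript at 95.5% over 419 bases, so the division of reads between them is uncertain.

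Tk1, the thymidine salvage kinase gene, averaged 8.42 ± 2.76 CPM in bleomycin and 14.1 ± 7.77 CPM in saline libraries (SD, n = 5 and 6, log2 fold change -0.74 ± 0.38, edgeR adjusted p = 0.215). Its values ran from 5.81 to 11.8 CPM in bleomycin libraries and from 6.51 to 24.4 CPM in saline libraries, with saline 2 and 3 highest and saline 1, 4 and 5 within the bleomycin range. Tyms, which encodes thymidylate synthase, had a log2 fold change of -0.41 ± 0.23 (edgeR adjusted p = 0.250). Ung, the gene of the glycosylase that removes uracil from DNA, had only 24 to 61 reads per library and a log2 fold change of -0.32 ± 0.30 (edgeR adjusted p = 0.490).

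**Figure D2:**
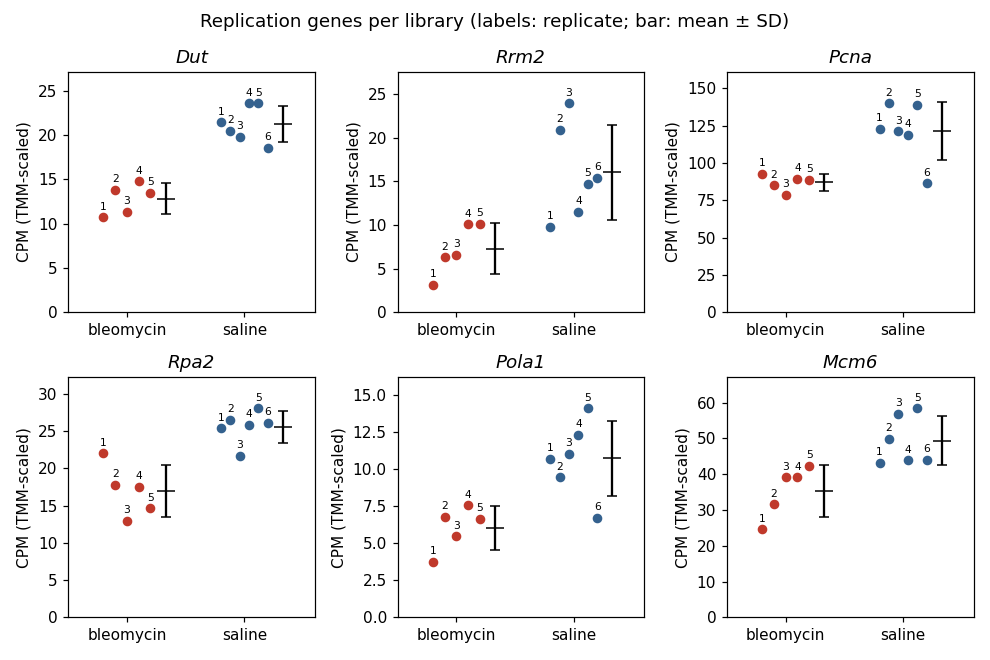
CPM after TMM scaling in each of the 5 bleomycin and 6 saline libraries for the 5 genes that fell and Mcm6, with replicate numbers beside the points and bars for mean ± SD. The groups do not overlap for Dut and Mcm6, and saline 6 lies within the bleomycin range for Pcna and Pola1.

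At the fork, the single-strand binding subunits differed in their calls. Rpa2, the middle subunit of RPA, held 22.0, 17.8, 12.9, 17.5 and 14.6 CPM in bleomycin 1 to 5, against 21.6, 25.9 and 28.03 CPM as lowest, median and highest saline values. Bleomycin 1 alone reached the saline range. The log2 fold change was -0.59 ± 0.15 (SE), a 1.51-fold fall (edgeR adjusted p = 0.0330). The call was lost without any 1 library other than bleomycin 1, saline 3 or saline 6 (adjusted p 0.0543 to 0.0858), while the log2 fold change stayed between -0.70 and -0.49. The call held without saline 2 and 3 (-0.63, edgeR adjusted p = 0.0286). It was lost without saline 1 and 4, with total-count scaling, with GC correction and by limma on FPKM. Rpa1, the large subunit gene, held 73.1, 65.2, 51.6, 62.7 and 56.8 CPM in bleomycin 1 to 5, and 54.8, 65.2 and 69.3 CPM as lowest, median and highest saline values. The groups overlapped throughout, with a log2 fold change of -0.06 ± 0.12 (edgeR adjusted p = 0.781) that was above 0 with total-count scaling (0.11).

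Pcna encodes the ring that tethers polymerases to DNA and had the highest deposited FPKM of the members, 20.6 in bleomycin and 25.4 in saline on average. It held 92.9, 84.9, 78.7, 89.2 and 88.7 CPM in bleomycin 1 to 5, against 86.3, 122 and 140.02 CPM as lowest, median and highest saline values. The bleomycin libraries lay close together, and saline 6 was the only saline library among them. The log2 fold change was -0.48 ± 0.14 (SE), a 1.40-fold fall (edgeR adjusted p = 0.0440). The call was lost without any 1 library other than bleomycin 1 or saline 6 (adjusted p 0.0638 to 0.108, log2 fold change -0.56 to -0.43). It was also lost without saline 2 and 3 (-0.43, edgeR adjusted p = 0.0655) and without saline 1 and 4. Total-count scaling, GC correction and limma on FPKM lost it as well. A processed pseudogene, Pcna-ps2, matches the Pcna transcript at 99.2% over 781 bases, so how reads were divided between them is uncertain.

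The clamp loader genes Rfc2, Rfc3, Rfc4 and Rfc5, whose products open the PCNA ring, did not pass. Their log2 fold changes were -0.13, -0.18, -0.28 and -0.07, each with an edgeR adjusted p of 0.426 or more. With total-count scaling Rfc2 and Rfc5 were above 0 (0.04 and 0.09). Lig1, which encodes the ligase that seals Okazaki fragments, held 11.2, 16.7, 23.9, 21.4 and 23.6 CPM in bleomycin 1 to 5, and 13.9, 19.3 and 29.7 CPM as lowest, median and highest saline values. The groups overlapped (log2 fold change -0.10 ± 0.23, edgeR adjusted p = 0.794), and the sign was positive with total-count scaling (0.06).

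Of the 4 polymerase and primase genes, 1 fell. Pola1, the catalytic subunit gene of polymerase alpha, held 3.77, 6.79, 5.47, 7.57 and 6.66 CPM in bleomycin 1 to 5, against 6.74, 10.9 and 14.1 CPM as lowest, median and highest saline values. Only saline 6 lay among the bleomycin libraries. The log2 fold change was -0.82 ± 0.23 (SE), a 1.77-fold fall (edgeR adjusted p = 0.0452). The call was lost without any 1 library other than saline 6 (adjusted p 0.0571 to 0.108, log2 fold change -0.93 to -0.69). The call held without saline 2 and 3 (-0.85, edgeR adjusted p = 0.0462). It was lost without saline 1 and 4, with total-count scaling, with GC correction and by limma on FPKM.

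Prim1, the catalytic subunit gene of primase, held 3.84, 6.85, 7.52, 9.54 and 9.32 CPM in bleomycin 1 to 5, against 9.81, 10.8 and 12.7 CPM as lowest, median and highest saline values. The groups did not overlap, but the log2 fold change of -0.57 ± 0.22 did not pass (edgeR adjusted p = 0.115). Pold1, the catalytic subunit gene of polymerase delta, which copies the lagging strand, held 14.8, 20.1, 22.3, 24.4 and 20.2 CPM in bleomycin 1 to 5. In saline its lowest, median and highest values were 8.025, 16.5 and 23.6 CPM, with saline 1 and 4 far below the rest. It had the highest log2 fold change of the 35 at 0.38 ± 0.30 (edgeR adjusted p = 0.402). Pole, the leading-strand polymerase gene, averaged 4.20 ± 1.38 CPM in bleomycin and 4.48 ± 1.78 CPM in saline libraries (SD, n = 5 and 6, edgeR adjusted p = 0.873).

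Of the 10 helicase genes, 0 passed by edgeR (3 had an unadjusted p under 0.05, namely Mcm3, Mcm4 and Mcm6), while DESeq2 called Mcm4 and Mcm6 lower (adjusted p = 0.0441 and 0.0342). Mcm6 held 24.6, 31.6, 39.1, 39.1 and 42.4 CPM in bleomycin 1 to 5, against 43.1, 46.9 and 58.4 CPM as lowest, median and highest saline values. The groups did not overlap, and the log2 fold change was -0.48 ± 0.16 (edgeR adjusted p = 0.0767). Mcm4 held 30.2, 27.5, 29.6, 32.4 and 32.1 CPM in bleomycin 1 to 5, against 32.2, 38.7 and 48.1 CPM in saline. Only saline 6 lay below the highest bleomycin library (log2 fold change -0.35 ± 0.13, edgeR adjusted p = 0.1004). Mcm3 held 12.7, 20.6, 29.2, 29.2 and 33.6 CPM in bleomycin 1 to 5, against 29.1, 36.2 and 49.0 CPM in saline, with overlap (-0.57 ± 0.24, edgeR adjusted p = 0.142).

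Mcm2 and Mcm5, also subunits of the ring, had log2 fold changes of -0.37 and -0.26, and Mcm5 was at 0.13 without saline 2 and 3. Mcm7 was the only ring subunit with a positive value (0.11 ± 0.18, edgeR adjusted p = 0.708), which turned to -0.04 without saline 1 and 4. It shares exonic bases with neighbours on the opposite strand, Ap4m1 and Cops6, and a pseudogene, Gm5487, matches its transcript at 97.7% over 2157 bases. Cdc45, Gins1, Gins2 and Mcm10, which complete or activate the helicase, had log2 fold changes between -0.38 and -0.14 with TMM scaling, at 3.41 to 4.33 CPM on average in bleomycin and 4.37 to 4.79 CPM in saline libraries. Without saline 2 and 3, Cdc45, Gins2 and Mcm10 were at 0.09, 0.01 and 0.05. Gins2 shares 2758 exonic bases with Gse1 on the opposite strand, and the strand setting of the counting is not stated in the labels or notes.

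The licensing genes did not pass, with 0 of 4 called by edgeR and 0 at an unadjusted p under 0.05. Orc6, the smallest subunit of the origin recognition complex, held 27.5, 22.4, 28.7, 21.3 and 27.8 CPM in bleomycin 1 to 5, against 24.0, 30.2 and 35.98 CPM as lowest, median and highest saline values. Saline 2 and 3 were its lowest saline libraries, the reverse of Rrm2 and Tk1 (log2 fold change -0.23 ± 0.15, edgeR adjusted p = 0.311). Orc1, the largest ORC subunit gene, had 3 to 30 reads per library and a log2 fold change of -0.45 ± 0.50 (edgeR adjusted p = 0.569). Cdc6 and Cdt1, which load the MCM ring, had log2 fold changes of -0.14 and -0.07, at 0.02 and 0.06 with total-count scaling. Cdt1 was at 15.6 CPM in saline 2 and 2.92 CPM in saline 4, and its log2 fold change was 0.60 without saline 2 and 3 (edgeR adjusted p = 0.138).

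Uhrf1, whose product recognises hemimethylated DNA behind the fork, held 1.06, 8.85, 11.5, 13.1 and 15.8 CPM in bleomycin 1 to 5, against 8.39, 13.3 and 21.1 CPM as lowest, median and highest saline values. Bleomycin 1, with 14 reads, was far below every other library, and the remaining 4 bleomycin libraries lay within the saline range (log2 fold change -0.50 ± 0.49, edgeR adjusted p = 0.513). Like Cdc6 and Rfc5, Uhrf1 has a near-identical pseudogene (98.3% over 1590 bases), which makes its counts uncertain. Chaf1a, the large subunit gene of the chromatin assembly factor CAF-1, had a log2 fold change of 0.14 ± 0.20 (edgeR adjusted p = 0.655). It shares 4648 exonic bases with Ubxn6 on the opposite strand. E2f1, a transcription factor gene of the G1/S switch, held 4.22, 7.28, 8.84, 6.75 and 10.9 CPM in bleomycin 1 to 5, against 7.62, 10.0 and 19.4 CPM as lowest, median and highest saline values. The groups overlapped (-0.61 ± 0.31, edgeR adjusted p = 0.200).

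Across libraries the members did not all have the same order, and how far they varied together was not tested. Saline 2 or 3 held the highest CPM of all 11 libraries for 23 of the 35 members, and bleomycin 1 the lowest for 18. Within the bleomycin group, bleomycin 5 was highest for 18 members. Within the saline group, saline 1 or 4 was lowest for 20. These counts were not made over all genes, so whether such an order is particular to the members was not tested. The median deviation of the 35 members from the saline mean, in log2(CPM + 0.5), was -0.49, -0.36, -0.31, -0.18 and 0.03 in bleomycin 1 to 5. In saline 2 and 3 it was 0.35 and 0.25, and in saline 1, 4, 5 and 6 it was -0.19, -0.22, -0.06 and -0.03. Dut, Pola1 and Rpa2 did not follow this order, as their highest saline libraries were 4, 5 and 5.

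**Figure D3:**
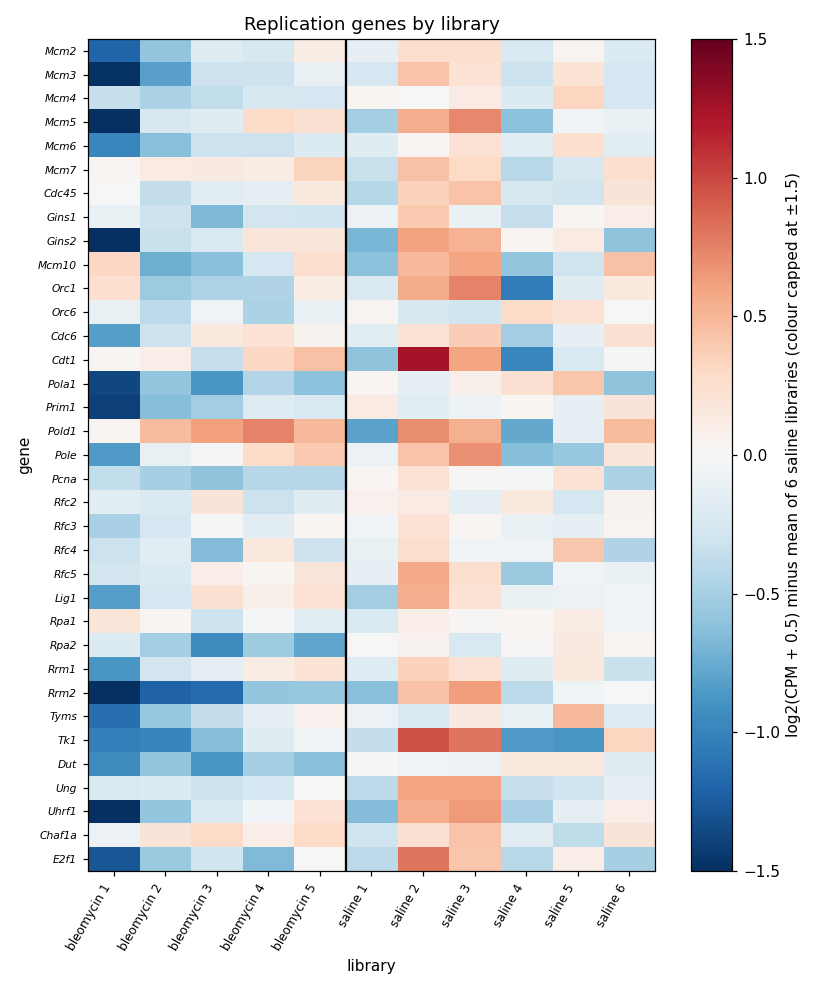
Log2(CPM + 0.5) of each of the 35 genes minus its mean over the 6 saline libraries, with the 5 bleomycin libraries left of the 6 saline libraries. Bleomycin 1 is lowest for 18 genes and saline 2 or 3 highest for 23, counts that were not made over all genes. Dut is below 0 in all 5 bleomycin libraries and near 0 in all saline libraries.

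Other genes of replication and the cell cycle were described from 7 lists of 144 genes, of which 142 were tested. By edgeR 13 fell and 2 rose, beside 5.7% of all genes called lower and 4.63% higher. The median log2 fold change was -0.29. Without saline 2 and 3, 12 fell and 6 rose, while 9.97% of all genes were called lower and 9.22% higher. The shares of the reported fit also stand beside the counts of each list below. Counts at an unadjusted edgeR p under 0.05 in these lists take in both directions. Over all 14478 genes tested, 4344 had such a p. Of 40 further fork and origin genes, 4 fell and 0 rose (11 at an unadjusted p under 0.05), with a median of -0.29. Gmnn encodes geminin, which blocks CDT1 so that origins fire once. It averaged 14.9 ± 5.51 CPM in bleomycin and 32.2 ± 9.19 CPM in saline libraries (SD, n = 5 and 6, log2 fold change -1.12 ± 0.26, edgeR adjusted p = 0.0230). Its call was lost without bleomycin 2, 3, 4 or 5 (adjusted p 0.0559 to 0.0593) and without saline 1 and 4, its highest libraries (-0.83, adjusted p = 0.0722).

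Rpa3, the small subunit of RPA, averaged 12.3 ± 1.12 CPM in bleomycin and 23.1 ± 6.18 CPM in saline libraries (SD, n = 5 and 6), and the groups did not overlap. Its log2 fold change was -0.91 ± 0.20 (edgeR adjusted p = 0.0183), and the call was lost without bleomycin 5 (adjusted p = 0.0508), without saline 1 and 4 (-0.74, 0.0632) and with GC correction (-0.33, 0.18). Pole4, an accessory subunit of polymerase epsilon, averaged 27.0 ± 4.24 CPM in bleomycin and 46.2 ± 5.99 CPM in saline libraries (SD, n = 5 and 6, -0.77 ± 0.15, edgeR adjusted p = 0.0106). It kept its call in each fit that left out 1 library and without either saline pair. The last of the 4, Rnaseh2b, a subunit of the nuclease that removes ribonucleotides from DNA, was named after its values were seen (-0.58, edgeR adjusted p = 0.0473, lost without any 1 library but saline 6, at 0.0538 to 0.101, without saline 1 and 4, at 0.162, with total-count scaling, at 0.168, and with GC correction, at 0.166). Gins4, with the highest FPKM of the list, had a log2 fold change of -0.22 (edgeR adjusted p = 0.361).

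Of 21 other nucleotide supply genes tested, 2 fell and 0 rose (median -0.10, 5 at an unadjusted p under 0.05). Dck, the deoxycytidine salvage kinase gene, had a log2 fold change of -1.16 (edgeR adjusted p = 0.0392), lost without any 1 library but saline 4 or 6 (0.052 to 0.0971), without saline 2 and 3 (-0.67, 0.06), with total-count scaling (0.0923) and with GC correction (0.117). Nme1, a nucleoside diphosphate kinase gene, was at -0.67 (edgeR adjusted p = 0.0440), lost without any 1 library but saline 6 (0.05 to 0.1), without saline 1 and 4 (0.0963), with total-count scaling (0.12) and with GC correction (0.0678). Its near copy Nme2 is not analysed here. Samhd1, which encodes a dNTP-degrading enzyme also abundant in myeloid cells, held 229 to 412 CPM in bleomycin libraries, against 1126 and 1055 CPM in saline 2 and 3 and 163 to 364 CPM in the other saline libraries.

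Of 13 other chromatin copying genes 1 fell by edgeR and 0 rose (median -0.24), and it was Hat1, which acetylates new histone H4, at 29.0 ± 3.32 CPM in bleomycin and 49.1 ± 9.90 CPM in saline libraries (SD, n = 5 and 6, log2 fold change -0.76, edgeR adjusted p = 0.0166). The groups did not overlap, and the call was lost without saline 1 and 4 (-0.60, adjusted p = 0.0598). Of 23 E2F, RB and G1/S cyclin genes 2 fell and 0 rose (7 at an unadjusted p under 0.05, median -0.24). Their log2 fold changes were negative for 17 and positive for 6. Ccnd3 was at 0.59 (edgeR adjusted p = 0.0619) and passed as higher in 4 of 23 alternatives. Ccnd1, with the highest FPKM of the list, was at 0.42 (edgeR adjusted p = 0.421). E2f8, a repressor of the E2F family, was at -1.27 (edgeR adjusted p = 0.0252, lost without bleomycin 2 or 3 at 0.0663 and 0.067). Rbl1, which encodes the RB relative p107, was at -0.89 (edgeR adjusted p = 0.0320, lost without bleomycin 2, 3, 4 or 5 or saline 1, 2 or 3 at 0.0501 to 0.0823). Without saline 2 and 3 neither E2f8 nor Rbl1 passed (0.0504 and 0.0547), nor did they with total-count scaling (0.0664 and 0.116). Rbl1 also did not pass without saline 1 and 4 (0.0506) or with GC correction.

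Of 6 CDK inhibitor genes tested 2 rose and 0 fell by edgeR. Cdkn1a held 983, 434, 318, 463 and 526 CPM in bleomycin 1 to 5, against 40.1, 68.3 and 222 CPM as lowest, median and highest saline values. The groups did not overlap, and bleomycin 1 was its highest library. Its log2 fold change was 2.34 ± 0.49 (edgeR adjusted p = 0.0161). The call held in every fit that left out 1 library and was lost with the replicate number as a block. Saline 2 and 3 held 222 and 200.4 CPM and the other saline libraries 40.1 to 76.3 CPM, and leaving out that pair gave a log2 fold change of 3.29 (edgeR adjusted p = 0.00153). Cdkn2b, which encodes p15, averaged 26.9 ± 9.72 CPM in bleomycin and 8.26 ± 3.14 CPM in saline libraries (SD, n = 5 and 6, log2 fold change 1.70 ± 0.30, edgeR adjusted p = 0.00734), and its call held in every fit that left out 1 library. Of 17 replication stress genes, 0 passed by edgeR (7 at an unadjusted p under 0.05, median -0.37). The checkpoint kinase gene Chek1 was at -0.67 (edgeR adjusted p = 0.0783), the kinase gene Wee1 at -0.48 (0.121), the nuclease gene Exo1 at -0.85 (0.101), and Atrip, whose product partners ATR, at 0.50 (0.101).

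Of 22 mitosis and proliferation genes, 4 fell and 0 rose (11 at an unadjusted p under 0.05), and the median log2 fold change was -0.87, the lowest of the 7 lists. Mki67, which marks cycling cells, held 12.1, 14.6, 21.0, 29.6 and 36.9 CPM in bleomycin 1 to 5, against 46.1, 57.4 and 79.1 CPM as lowest, median and highest saline values. The groups did not overlap, the log2 fold change was -1.37 ± 0.29 (edgeR adjusted p = 0.0154), and it stayed called in every fit that left out 1 library. Bub1, a spindle checkpoint kinase gene, and Birc5, the survivin gene, were at -1.06 and -1.08 (edgeR adjusted p = 0.0252 and 0.0305). Bub1 lost its call without bleomycin 2, 3 or 5 (0.0535 to 0.0685), and Birc5 without any 1 bleomycin library or saline 3 (0.052 to 0.0749) and without saline 2 and 3 (-0.71, 0.0508). The last of the 4, Cenpf, a kinetochore gene named after its values were seen, was at -1.37 (edgeR adjusted p = 0.0406), lost without bleomycin 2, 3 or 4 or saline 2, 3, 4 or 5 (0.0558 to 0.1), without saline 2 and 3 (-1.08, 0.071) and without saline 1 and 4 (-1.48, 0.059). With total-count scaling Bub1, Birc5 and Cenpf did not pass (0.0787, 0.0865 and 0.0907), nor with GC correction (0.117, 0.0599 and 0.0976). The difference between the mitosis list and the replication genes was not tested.

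**Figure D4:**
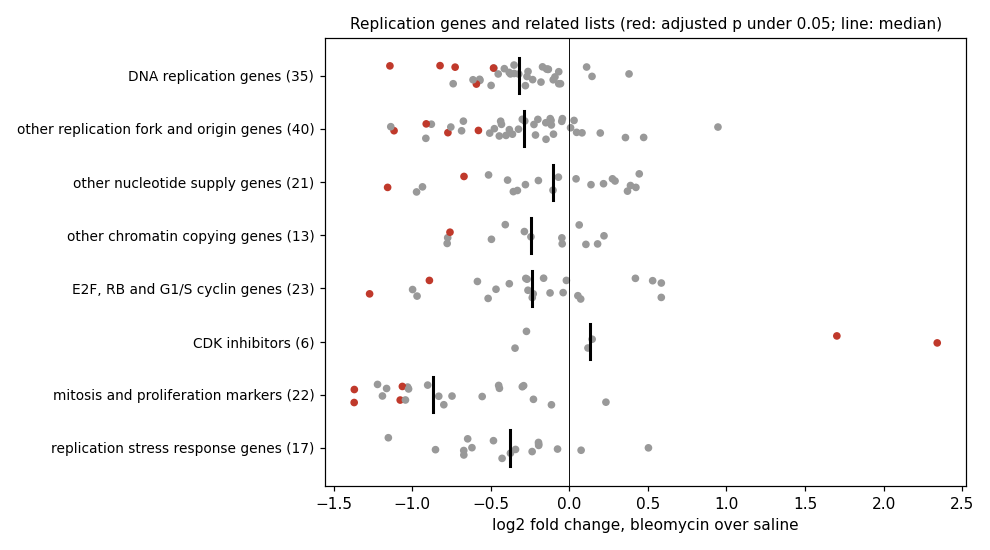
Log2 fold change, bleomycin over saline, of each tested gene of the 35 replication genes and the 7 related lists, with a line at the median and genes past the adjusted threshold in red. The medians run from -0.87 for mitosis and proliferation genes to 0.13 for CDK inhibitors, and that of the replication genes is -0.32.

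Markers of several cell types differed between the groups, in both directions, and their part in these results was not tested. Beside the counts below, 5.7% of all genes were called lower and 4.63% higher. An unadjusted edgeR p under 0.05, in either direction, was found for 4344 of all 14478 genes tested. Natural killer cell markers summed to 10.8 to 32.5 CPM in bleomycin and 96.8 to 382 CPM in saline libraries, and 8 of 9 fell. T cell markers summed to 22.7 to 50.8 CPM in bleomycin and 66.6 to 228 CPM in saline libraries, and 6 of 8 tested fell. Recruited monocyte and macrophage markers summed to 286 to 547 CPM in bleomycin and 409 to 2724.5 CPM in saline libraries, and 2 of 10 fell. All 10 had negative log2 fold changes (median -1.78), 9 of them at an unadjusted edgeR p under 0.05. B cell markers summed to 27.1 to 117 CPM in bleomycin and 42.5 to 317 CPM in saline libraries, and 0 of 7 passed by edgeR (2 at an unadjusted p under 0.05). Dendritic cell markers summed to 52.2 to 104 CPM in bleomycin and 127 to 173 CPM in saline libraries, and 4 of 8 fell. Alveolar macrophage markers summed to 579.8 to 1363 CPM in bleomycin and 378 to 800.5 CPM in saline libraries, and 0 of 10 passed by edgeR (3 at an unadjusted p under 0.05). Of these 10 markers, 7 had negative log2 fold changes, and the median was -0.24. Chil3 alone held 206 to 1194 CPM in bleomycin and 120 to 414 CPM in saline libraries. The highest bleomycin sum came with 1194 CPM of Chil3 in bleomycin 1. Markers of some other types rose. Endothelial markers summed to 2916 to 3678 CPM in bleomycin and 972 to 3339 CPM in saline libraries, and 4 of 9 rose. Alveolar type 1 markers summed to 3982 to 5181 CPM in bleomycin and 1340.1 to 4463 CPM in saline libraries, and 3 of 8 rose. Of alveolar type 2 markers 2 of 9 rose, and of fibroblast and pericyte markers 2 of 8 rose, with sums of 771 to 3075.5 CPM in bleomycin and 891 to 4692 CPM in saline libraries for the fibroblast list. Of erythroid precursor markers 0 of 5 tested passed by edgeR, and 4 had positive log2 fold changes. Of germinal centre and plasma cell markers 1 of 4 tested fell. Of airway epithelium markers 1 of 7 tested fell, and of cardiac muscle markers 0 of 7 passed. Only 3 of 8 thymocyte markers and 2 of 8 neutrophil markers were tested, and the others are not analysed here.

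Levels between genes were compared in the deposited FPKM, which is per length. The mean over all 11 libraries ran from 0.187 FPKM for Orc1 to 23.2 FPKM for Pcna, with Mcm4 at 7.44, Rfc2 at 5.99, Rpa1 at 5.71 and Dut at 5.33 FPKM. Among the 6 subunits of the MCM ring, which joins 1 copy of each, the mean ran from 1.40 FPKM for Mcm5 to 7.44 FPKM for Mcm4. The gene lengths that the deposited FPKM imply were 1.30 to 4.67 times the longest annotated transcript, with a median of 2.63 times over the 35 members (Mcm4 1.30, Mcm5 2.96). The order of levels between genes in FPKM depends on these lengths, whereas comparisons of 1 gene between groups do not.

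**Figure D5:**
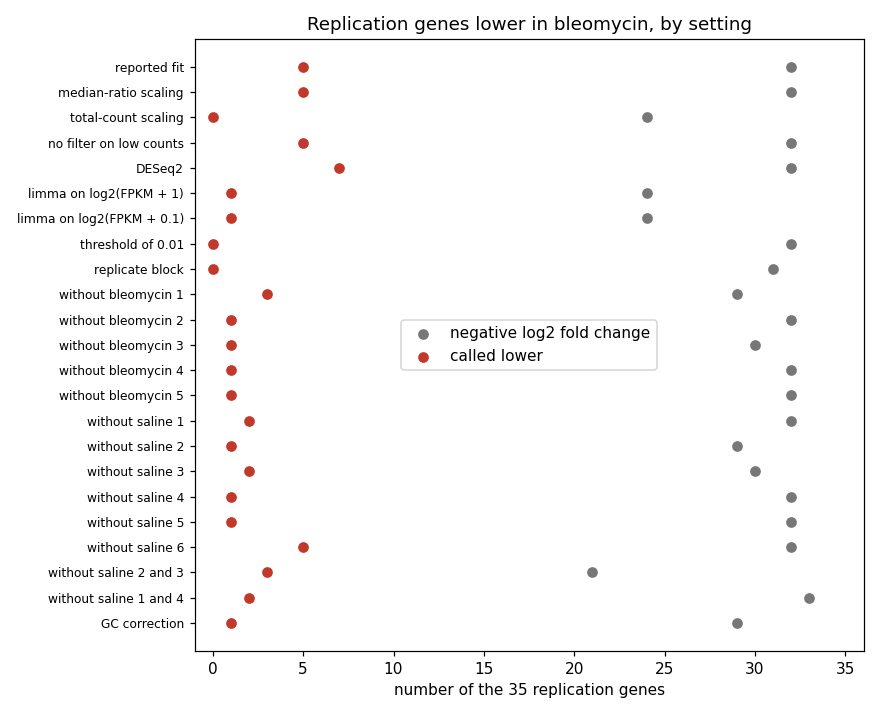
Number of the 35 replication genes with a negative log2 fold change (grey) and number called lower in bleomycin (red) in the reported fit and in 22 of the 23 alternatives (the stricter filter, which left 6 of these genes, is not drawn). The grey points drop from 32 to 24 with total-count scaling or limma on FPKM and to 21 without saline 2 and 3, and the red points run from 0 to 7.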

How the data were processed

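RNA of whole lungs was sequenced as polyadenylated, dUTP-marked, paired-end libraries, per the labels' protocols. The authors deposited whole-number read counts, not normalized, and FPKM values, which are counts per gene length and library total. The submitters' processing notes name FastQC, HISAT2 2.2.1, HTSeq 2.0.2 and GRCm39. Which step each served, the annotation and the strand setting are not stated in these sources.

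Counts of 14700 genes, each read in at least 5 libraries, were filtered with filterByExpr (count minimum of 10), leaving 14478, scaled by TMM and tested two-sided with edgeR 4.0.16 (quasi-likelihood, Benjamini-Hochberg over all genes, threshold 0.05, R 4.3.3). SEs were taken as |log2 fold change| over the root of edgeR's F. Alternatives used DESeq2 1.42.0 and limma 3.58.1. All 3 tools were tested on simulated counts, limma there on counts scaled to the library total and not on FPKM. The simulation did not hold the differences seen among the saline libraries. Other alternatives were median-ratio or total-count scaling, no or a stricter filter, a threshold of 0.01, a replicate block, GC correction and leaving out each library or saline 2 and 3 or 1 and 4. The members, lists and alternatives were chosen with earlier results of these data known. Values per library are given for the 10 members with the smallest p and, in each of 9 roles, the member with the highest FPKM. Of each related list up to 3 genes with the smallest p and that with the highest FPKM were eligible. GC content (GENCODE M21) was found for 99.86% of genes and all 35 members. Copies were sought at 95% identity over 200 bases.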

Additional observations from a re-analysis of the deposited data

Results flagged for a closer look

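Each of the 35 members was checked in both groups, 70 groups in all, for a library far from the others of its group. Only Rfc2 had one. It stood at 63.1 CPM in bleomycin 3, against 49.2 CPM in the next highest bleomycin library, a gap of 0.729 of the range of the group. Chance alone marks about 1 in 20 such groups. Rfc2 shares 952 exonic bases with Lat2 on the opposite strand, and the part of that overlap was not tested.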

How the results depend on the processing

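Over all genes, edgeR's 1496 calls became 732 with a filter of 5 FPKM in 5 libraries, 247 at a threshold of 0.01, 964 with GC correction, 2778 without saline 2 and 3, 876 without saline 1 and 4, and 557 to 2118 without 1 library, and DESeq2 made 2923. Replication genes called (5) became 0 with total-count scaling or at 0.01, 2 with the stricter filter (6 tested), 1 by limma on log2(FPKM + 1) or log2(FPKM + 0.1), 1 with GC correction, 3 without saline 2 and 3, 2 without saline 1 and 4, and 1 to 5 without 1 library. Related genes called (15) became 8 with total-count scaling, 7 with the stricter filter, 35 by DESeq2 and 8 by limma with either pseudocount. They became 1 at 0.01, 18 without saline 2 and 3, 8 without saline 1 and 4, and 9 with GC correction. Without 1 library they ran from 6 to 16. Same-numbered libraries did not deviate together over all genes tested (r -0.222 to 0.0248). Such correlations cannot exclude a pairing, since the deviations also hold the other differences between libraries of a group. With the replicate number as a block, 506 genes, 0 replication genes and 5 related genes were called, and Cdt1 turned to 0.12.

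Signs turned in the following log2 fold changes, none past the threshold; the cause was not tested. Without saline 2 and 3 these were Mcm5 0.13, Cdc45 0.090, Gins2 0.013, Mcm10 0.054, Orc1 0.14, Cdc6 0.034, Cdt1 0.60, Pole 0.26, Rfc5 0.18, Lig1 0.12, Ung 0.12 and Samhd1 0.021, and without saline 1 and 4 Mcm7 -0.040. With total-count scaling they were Cdc6 0.022, Cdt1 0.062, Pole 0.061, Rfc2 0.036, Rfc5 0.089, Lig1 0.063, Rpa1 0.11 and Rrm1 0.012. By limma on log2(FPKM + 1) they were Cdc45 0.0084, Cdc6 0.0045, Cdt1 0.088, Pole 0.012, Rfc2 0.031, Rfc5 0.073, Lig1 0.038 and Rpa1 0.094. On log2(FPKM + 0.1) they were Cdc45 0.047, Cdc6 0.012, Cdt1 0.25, Pole 0.061, Rfc2 0.036, Rfc5 0.13, Lig1 0.054 and Rpa1 0.11. GC correction gave Rfc3 0.10, Rpa1 0.020 and Rrm1 0.10. Over fits without 1 library, Cdc6 ran from -0.235 to 0.014 (above 0 without bleomycin 1), Cdt1 from -0.23 to 0.31 (bleomycin 3, saline 2 or 3), Pole from -0.22 to 0.086 (bleomycin 1, saline 3), Rfc5 from -0.17 to 0.070 (saline 2), Lig1 from -0.20 to 0.041 (bleomycin 1, saline 2) and Rpa1 from -0.12 to 0.023 (bleomycin 3). Of 776 values of replication genes under 23 alternatives, 50 turned sign. Only the 5 called genes could lose a call, and 68 of their values did. For Pola1 these were 17 of 22, for Pcna 17 of 23, for Rpa2 15 of 22 and for Rrm2 16 of 22. For Dut they were 3 of 23. Orc1 had the fewest reads of the replication genes, 3 to 30 per library.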
